A study of Homo sapiens with 6 samples.

Results

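The matrix metalloproteases (MMP), the membrane-anchored ADAM proteases and the secreted ADAMTS proteases were examined in A375 cells, a human melanoma line in long use, on day 3 after a small interfering RNA (siRNA) was transfected. The siERK3 group received a predesigned Silencer Select siRNA against ERK3, an atypical MAP kinase that is the product of the MAPK6 gene, and the siCon group a Silencer Select negative control siRNA; DharmaFECT reagent delivered both, and all cells grew in DMEM with fetal bovine serum. Each group had 3 arrays of the Clariom S Pico human type, all from this 1 cell line; the labels name 1 siRNA product per group without its sequence. Members were every gene whose symbol in the platform annotation begins with MMP, ADAM or ADAMTS followed by a number, which gave 60 of the 17687 genes tested, each with 1 probe set. They were 22 MMP, 19 ADAM and 18 ADAMTS genes and the antisense RNA MMP25-AS1, which matches the symbol pattern without encoding a protease. Family genes without a symbol in that annotation were not analysed here.

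All 3 families are zinc-dependent endopeptidases made as inactive proenzymes. MMPs cut collagens, gelatins and other matrix proteins, and the membrane-type MMPs do so at the cell surface and activate other MMPs. ADAMs release the ectodomains of membrane proteins, which is called shedding, though some ADAMs lack the consensus zinc-binding site and act in adhesion. ADAMTS proteases cut proteoglycans, procollagens and a few specialised substrates. Tissue inhibitors of metalloproteases (TIMPs) block MMPs and some of the ADAM and ADAMTS proteases. In melanoma the families are known for matrix breakdown during invasion and for the release of growth factors and adhesion molecules.

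Values are log2 signals, and background is the 95th percentile of the 612 negative control probe sets on the same array, 7.32 to 7.56 on the 6 arrays. Between 45.6% and 47.6% of all genes lay above it. The knockdown was examined first. MAPK6 had log2 values of 10.54, 10.32 and 10.67 on the siERK3 arrays, against 13.45, 13.55 and 13.62 on the siCon arrays. It fell by 3.03 (SE 0.14), to 12.2% of the siCon signal, with an adjusted p of 0.000133 in limma and an exact two-sided permutation p of 0.1, the smallest that 3 against 3 arrays allow. On the second principal component of all genes siERK3 3 lay at -15.2 and siCon 2 at -26.5, while the remaining 4 arrays ran from 4.35 to 21.7, so results that rest on them are also given without both. Melanocyte lineage markers SOX10, MITF and S100B lay above background on all arrays, while MLANA, PMEL and TYR lay below it on all arrays. Of markers of other cell types, 0 of 5 endothelial and 0 of 5 keratinocyte genes lay above background. Among 6 measured leukocyte markers LYZ and CD68 lay above it, with log2 changes of -0.85 and -0.47, and the pan-leukocyte marker PTPRC lay below it on all arrays. The mean level of the leukocyte list was 6.38 to 6.58 in siERK3 and 6.67 to 6.84 in siCon. Among 7 measured fibroblast markers LUM and COL1A2 lay above background in both groups and PDGFRB in siERK3 only, with changes of -0.83, -0.21 and 0.75, of which that of LUM passed the test, and the list's mean level was 6.55 to 6.75 in siERK3 and 6.43 to 6.71 in siCon. The part of these markers in the results below was not tested.

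After ERK3 knockdown ADAM19, a membrane-anchored sheddase, fell 3.09-fold, and it was the 1 member above background that passed the test over all genes. MMP13, a collagenase, also passed, lower in siERK3, but lay below background on all 6 arrays. The other 58 members did not pass, among them the main sheddases ADAM10 and ADAM17 and the surface collagenase MMP14. Thus 2 of 60 members, or 3.33%, were called by limma with Benjamini-Hochberg adjustment over all genes (threshold 0.05), both lower, against 0.956% of all genes called and 0.509% called lower. With counts this small the share says little about the members. The median log2 change was 0.00 over the members and 0.00 over all genes, with 30 members higher and 30 lower in siERK3.

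Only 15 of the 60 members (25%) lay above background on all 3 arrays of a group, against 46.2% of all genes. All 15 did so in both groups, so none entered through the group where it was high. They were MMP1, MMP2, MMP8, MMP9, MMP14, MMP16, ADAM9, ADAM10, ADAM12, ADAM15, ADAM17, ADAM19, ADAM22, ADAM23 and ADAMTS12. ADAMTS16 lay above background on 1 siERK3 array and 0 siCon arrays, and 44 members lay below it on every array. In bulk RNA, fewer cells that express a gene and less RNA per cell cannot be told apart.

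**Figure D1:**
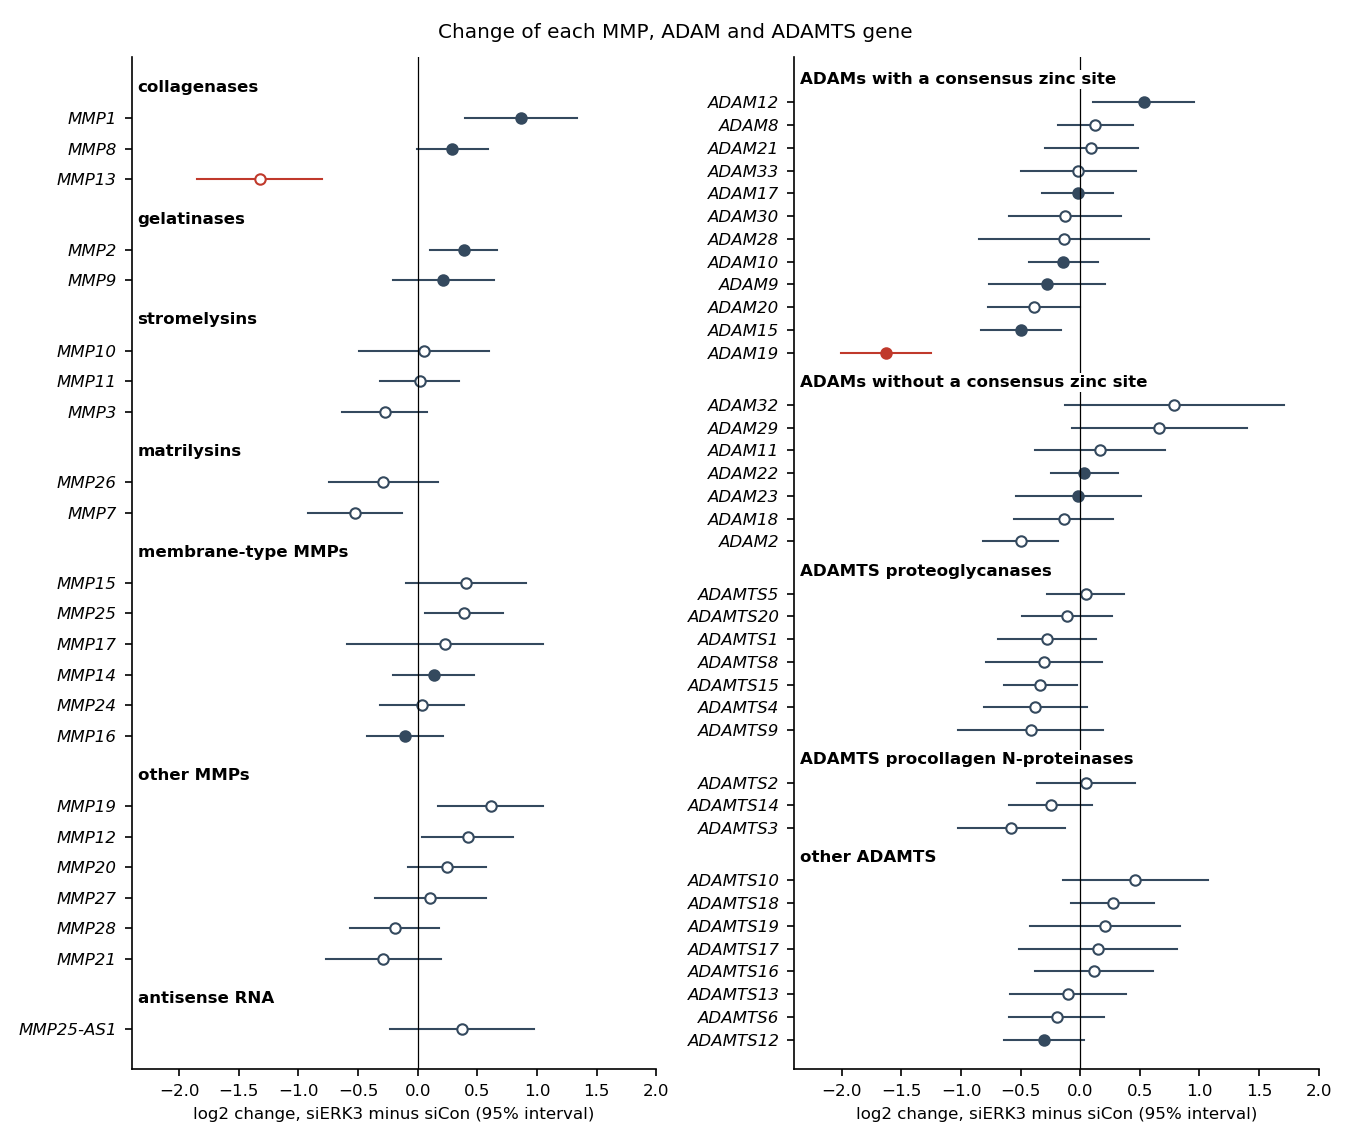
Log2 change, siERK3 minus siCon, with the 95% interval of the moderated fit, for each of the 60 members grouped by role. Filled points are the 15 members above background on all 3 arrays of a group, open points the others, and red marks the 2 that passed the test, ADAM19 at -1.63 and MMP13 at -1.33.

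At an unadjusted p under 0.05 there were 13 members (21.7%, against 13.5% of all genes and 12.4% of the negative controls in a fit of all probe sets), 6 higher and 7 lower in siERK3 (6.98% and 6.5% of all genes). The share of negative controls is larger than a threshold of 0.05 alone would give. Unadjusted p-values thus ran small for them, and the reason was not tested. After adjustment 0 of the 612 negative controls passed. The siERK3 and siCon values did not overlap for 17 members (28.3%, against 19.8% of all genes), 7 higher and 10 lower (10.1% and 9.7% of all genes). Of the 15 members above background 1 was called, against 1.78% of the 8166 genes above background (0.845% higher, 0.931% lower). At an unadjusted p under 0.05 there were 5 of the 15 (33.3%, against 18.5%), 3 higher and 2 lower (9.29% and 9.17%). Groups did not overlap for 7 of the 15 (46.7%, against 29.7%), 3 higher and 4 lower (14.8% and 14.9%). The members' changes were spread more widely than those of all genes, with a median absolute log2 change of 0.26 against 0.16. A fitted change of at least 1.5-fold was reached by 6 members (10.0%) and by 4.22% of all genes. Those 6 were ADAM19, MMP13, MMP1, MMP19, ADAM29 and ADAM32, of which ADAM19 and MMP1 lay above background. The members' median standard error was 0.182, against 0.165 over all genes.

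**Figure D2:**
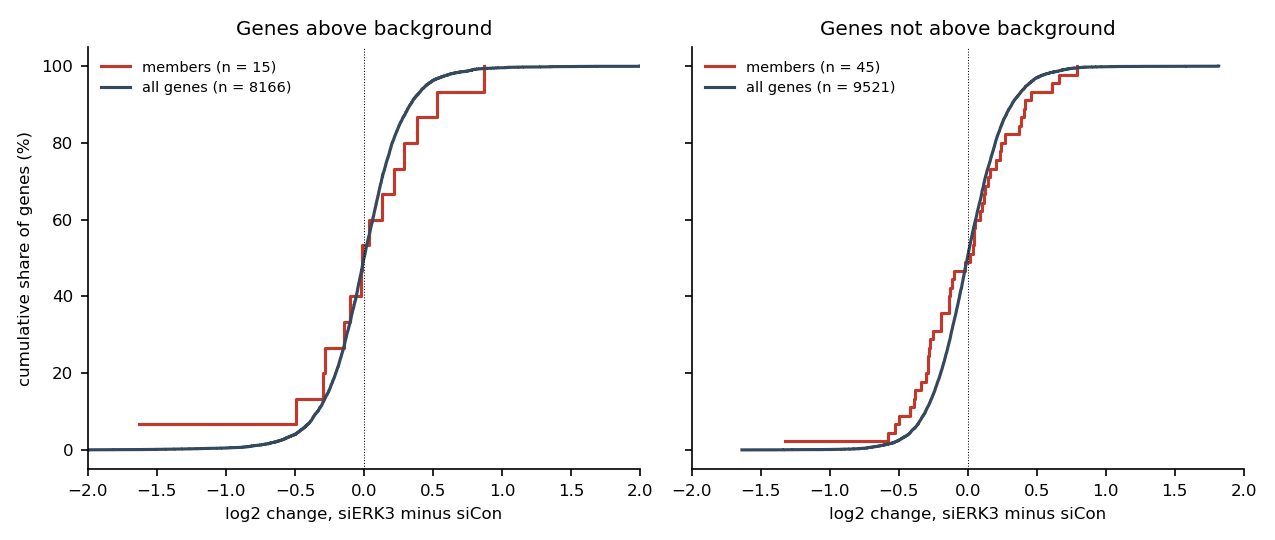
Cumulative share of genes by log2 change, siERK3 minus siCon, for genes above background on all 3 arrays of a group on the left and for the rest on the right, with values outside -2 to 2 drawn at those limits. The red line is the members (15 and 45), the dark line all genes (8166 and 9521); both cross the middle near 0, and the members' line is the flatter one on each side.

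ADAM19 belongs to the ADAMs with a consensus zinc site, known to shed neuregulins and, in mice, to be needed for heart development. Its log2 values were 7.64, 7.79 and 7.85 on the siERK3 arrays, against 9.08, 9.48 and 9.60 on the siCon arrays. Every siERK3 value lay below every siCon value by more than 1 log2 unit, and the siERK3 values were close to background. The fitted change was -1.63 (SE 0.17, 95% interval -2.0 to -1.25), with an adjusted p of 0.00566 in limma, rank 15 of all genes by p. With 1 array left out the call held in 6 of 6 fits, with log2 changes of -1.78 to -1.52 and adjusted p of 0.00905 to 0.0364. Without both siERK3 3 and siCon 2 the change was -1.62 but the adjusted p was 0.109, in a fit that called 7 genes in all.

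The other sheddases above background were flatter. ADAM10, the sheddase of NOTCH receptors and N-cadherin, had log2 values of 13.10, 13.07 and 13.12 in siERK3, against 13.12, 13.26 and 13.34 in siCon, a change of -0.14 (95% interval -0.43 to 0.15), and of -0.09 without siCon 3. ADAM17, which releases TNF and ligands of the EGF receptor, had values of 11.29, 11.39 and 11.38 in siERK3, against 11.24, 11.39 and 11.48 in siCon. The groups overlapped, and the change of -0.02 had an interval of -0.32 to 0.28. ADAM9 showed 10.21, 10.40 and 10.11 in siERK3, against 10.79, 10.02 and 10.75 in siCon, where siCon 2 was the low array. Its change was -0.28 with all arrays, -0.53 without siCon 2, -0.15 without siCon 1 and -0.17 without siCon 3, and none of these passed the test.

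ADAM15, an ADAM with an integrin-binding disintegrin domain, had log2 values of 8.80, 8.71 and 8.51 in siERK3, against 9.10, 9.36 and 9.05 in siCon. The groups did not overlap, but the change of -0.50 (SE 0.15) did not pass over all genes (adjusted p = 0.191 in limma). Without both siERK3 3 and siCon 2 the change was -0.32 (adjusted p = 0.485). ADAM12, known for cleaving IGF-binding proteins, lay the other way, at 7.97, 8.52 and 8.51 in siERK3 and 7.77, 8.01 and 7.63 in siCon. Its groups overlapped through siERK3 1 and siCon 2, and the change was 0.53 (SE 0.19, adjusted p = 0.261 in limma). Of the 12 measured ADAMs with a consensus zinc site 9 were lower and 3 higher in siERK3, 1 passed (ADAM19) and 11 did not, with a median change of -0.13.

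The ADAMs without that site include adhesion and synaptic proteins, and 7 were measured. ADAM22, the neuronal receptor of the secreted protein LGI1, had log2 values of 9.43, 9.45 and 9.33 in siERK3, against 9.31, 9.35 and 9.44 in siCon. ADAM23, another LGI1 receptor, had 9.01, 8.90 and 8.65 in siERK3, against 9.28, 8.36 and 8.96 in siCon. Both overlapped between groups, and ADAM22 had the narrower interval of change, -0.25 to 0.32, against -0.54 to 0.51 for ADAM23. With 1 array left out their changes ran from 0.01 to 0.07 and from -0.27 to 0.19. The other 5 lay below background, with ADAM2, a sperm surface protein, at a mean of 3.56 in siERK3 and 4.06 in siCon. ADAM29 and ADAM32 had the largest fitted log2 changes among them, 0.66 (SE 0.32) and 0.79 (SE 0.40), and neither passed.

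**Figure D3:**
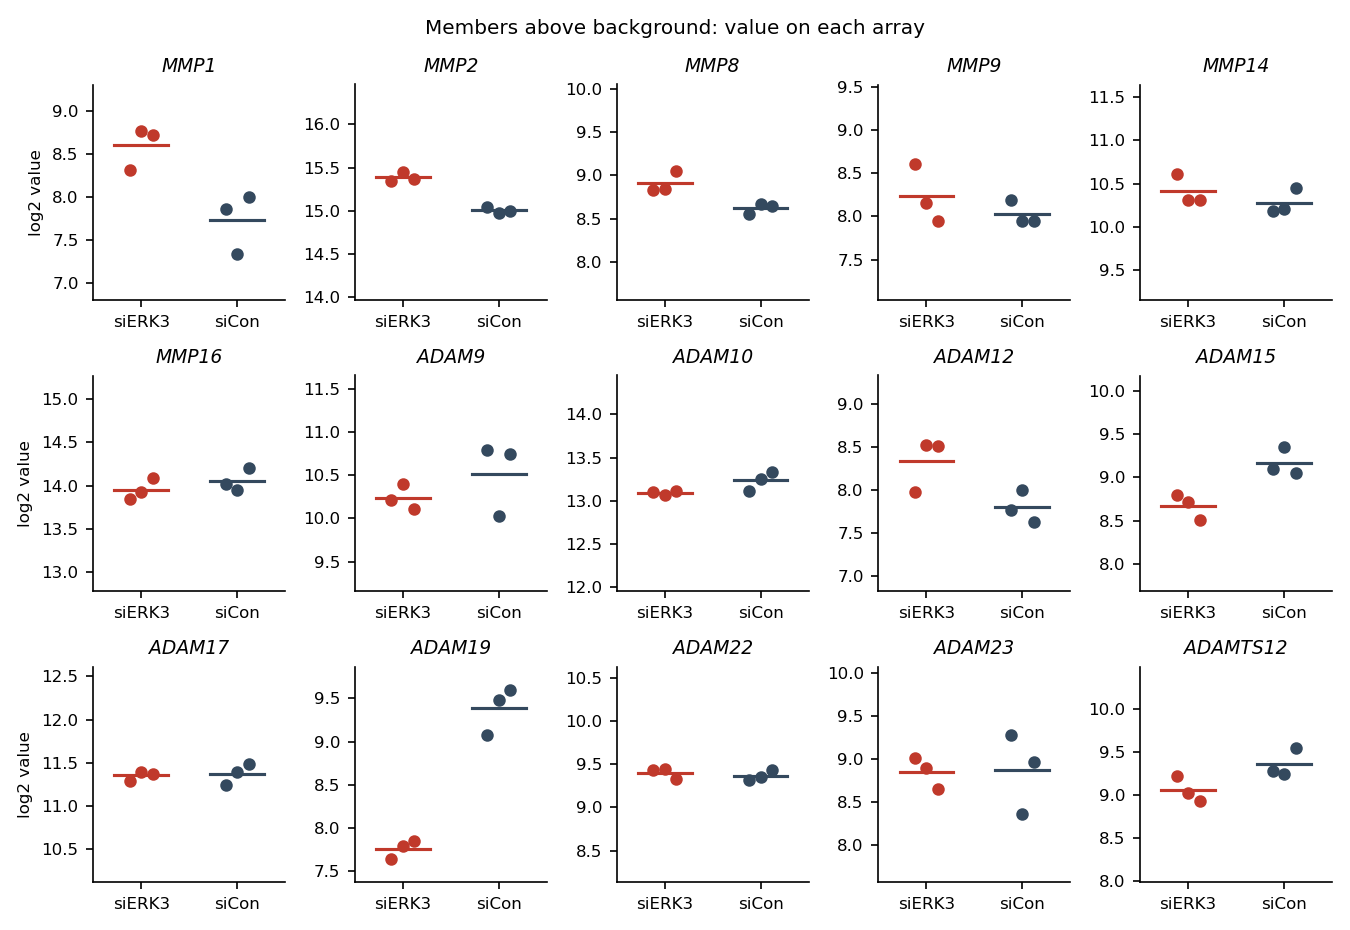
Log2 value on each array, siERK3 on the left and siCon on the right of each panel, for the 15 members above background, with a bar at the group mean. All panels span 2.5 log2 units; ADAM19 has the widest gap between groups, and MMP1, MMP2, MMP8, ADAM10, ADAM15 and ADAMTS12 are the others without overlap.

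Collagenases cut native fibrillar collagen. MMP1, the interstitial collagenase, had log2 values of 8.31, 8.77 and 8.72 in siERK3, against 7.87, 7.34 and 8.0 in siCon. All siERK3 arrays lay above all siCon arrays, and the siCon values were close to background. The change of 0.87 (SE 0.21, 95% interval 0.40 to 1.33), a 1.82-fold higher signal, did not pass over all genes (adjusted p = 0.104 in limma). It passed when only the 8166 genes above background were tested (adjusted p = 0.0192) and with a mean-variance trend and robust moderation (0.0168), and without both siERK3 3 and siCon 2 the change was 0.61 (adjusted p = 0.343).

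MMP8, the collagenase known from neutrophils, had log2 values of 8.83, 8.85 and 9.05 in siERK3, against 8.55, 8.67 and 8.64 in siCon. The groups did not overlap, and the change of 0.29 (SE 0.13) did not pass. MMP13 had values of 3.46, 3.69 and 3.99 in siERK3, against 4.71, 4.88 and 5.52 in siCon, all more than 1 log2 unit below background, so no fold is given. The fitted difference was -1.33 (SE 0.23), and limma gave an adjusted p of 0.0425. In a fit of all 24351 probe sets the adjusted p was 0.0921, and 31 of the 612 negative controls (5.07%) had a change at least as large, while 1 had a p as small. The call was lost with any 1 array left out, with adjusted p of 0.0730 to 0.163, and without both siERK3 3 and siCon 2 (0.172).

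**Figure D4:**
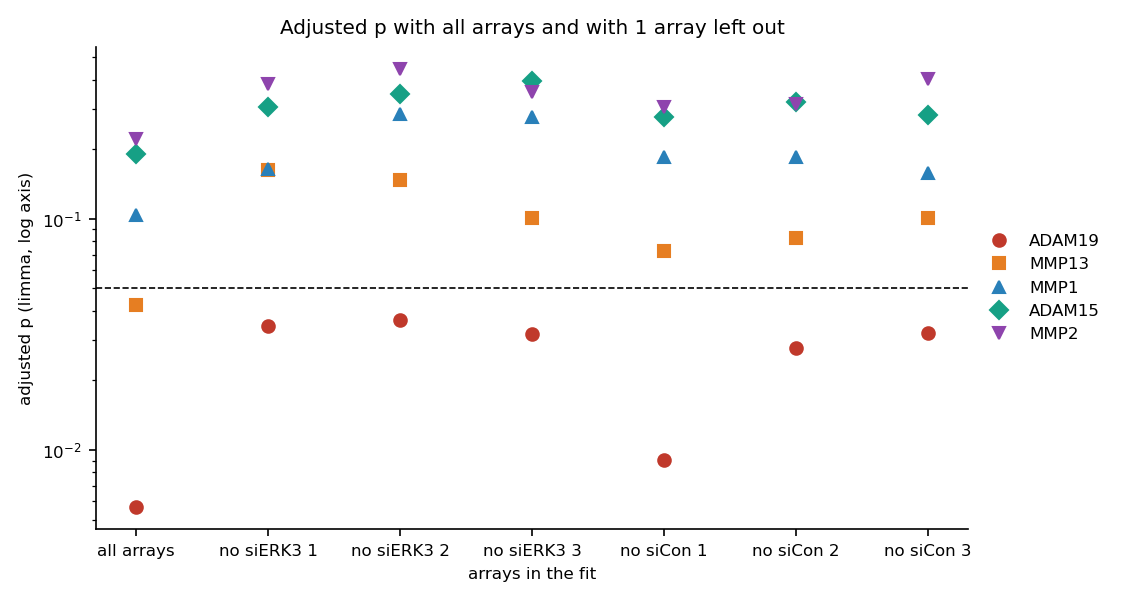
Adjusted p in limma, on a log axis, for 5 members in the fit of all 6 arrays and in the 6 fits that each leave out 1 array, with a dashed line at 0.05. ADAM19 stays below the line throughout, between 0.00566 and 0.0364, MMP13 is below it only with all arrays, and MMP1, ADAM15 and MMP2 lie above it in all 7.

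MMP1, MMP8 and MMP13 belong to a run of 9 MMP genes that follow each other on chromosome 11 without another protein-coding gene between them in the RefSeq gene table (GRCh38.p14), in the order MMP7, MMP20, MMP27, MMP8, MMP10, MMP1, MMP3, MMP12 and MMP13. In siERK3 6 of the 9 were higher and 3 lower, with changes between -1.33 and 0.87 and a median of 0.10. The 3 lower genes, MMP13, MMP3 and MMP7, lay below background on all arrays, so their direction says little. MMP1 and MMP8 were the 2 above background, and both were higher in siERK3, at 0.87 and 0.29, though neither passed over all genes. MMP3, the stromelysin next to MMP1, was at a mean of 5.78 in siERK3 and 6.06 in siCon, and MMP7, the matrilysin, at 3.28 in siERK3 and 3.8 in siCon, both below background and not called.

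Many MMP promoters are known to carry an AP-1 site, bound by FOS and JUN proteins, upstream of a TATA box. RefSeq promoter sequences (GRCh38.p14) were matched by symbol for 35 of the 60 members. The 250 bases before the annotated start were searched on both strands for 3 words. The 25 unmatched members were not searched, and they include MMP1, MMP3, MMP12 and MMP13 of the chromosome 11 run, and MMP2 and MMP9. Of the rest of that run MMP8 held the TATA word alone and MMP27 none of the 3, with MMP7, MMP10 and MMP20 described below. The AP-1 word TGANTCA leaves its centre base free, while the usual AP-1 site has C or G there. This wider word was found in 4 of the 35 (11.4%), against 5.07% of the 14250 promoters of genes tested and 6.6% of all 27305 promoters. MMP7 holds TGAGTCA, which is the usual site. MMP10, MMP20 and ADAMTS12 hold TGAATCA, which matches only the wider word. The narrower word was not counted. The TATA word TATAAA was found in 7 (20.0%, against 8.99% and 11.1%), and the PEA3 word AGGAAG, a site of ETS factors, in 8 (22.9%, against 28.7% of either). Different words can share at most 1 base, and a match is a description of letters only. MMP7, MMP10 and MMP20 of the chromosome 11 run held both AP-1 and TATA words, in MMP7 and MMP10 at nearly the same places, 67 bases before the start for the AP-1 word and 30 or 31 for the TATA word. ADAMTS12 was the 1 of 10 matched members above background with the AP-1 word, 84 bases before its start, and ADAM19 held none of the 3 words. Whether these words bear on any change was not tested. The 120 bases before the start are shown for these 5 genes, 5′ to 3′, with AP-1 and TATA words in capitals. They lie on the minus strand at chr11:102530748-102530867, chr11:102780629-102780748, chr11:102625333-102625452, chr5:33891991-33892110 and chr5:157575776-157575895.
MMP7: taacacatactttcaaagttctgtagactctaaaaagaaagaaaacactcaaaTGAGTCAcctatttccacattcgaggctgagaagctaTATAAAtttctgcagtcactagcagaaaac
MMP10: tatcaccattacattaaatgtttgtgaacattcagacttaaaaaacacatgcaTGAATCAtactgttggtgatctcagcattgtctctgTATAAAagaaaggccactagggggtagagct
MMP20: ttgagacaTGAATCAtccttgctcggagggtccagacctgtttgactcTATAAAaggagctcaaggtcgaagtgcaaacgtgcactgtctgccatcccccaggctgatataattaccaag
ADAMTS12: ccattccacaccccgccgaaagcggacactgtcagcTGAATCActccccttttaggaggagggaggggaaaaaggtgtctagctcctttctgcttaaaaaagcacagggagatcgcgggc
ADAM19: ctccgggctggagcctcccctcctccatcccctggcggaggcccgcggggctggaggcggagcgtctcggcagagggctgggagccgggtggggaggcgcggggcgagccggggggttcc
The ADAM19 stretch is 80.0% G and C, against 35.0% for MMP7 and 36.7% for MMP10. The log2 changes of the 4 genes with the AP-1 word were -0.52 for MMP7, 0.05 for MMP10, 0.24 for MMP20 and -0.30 for ADAMTS12, and of these only ADAMTS12 was above background.

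Gelatinases cut denatured collagen and basement membrane collagen. MMP2 had log2 values of 15.34, 15.45 and 15.37 in siERK3, against 15.04, 14.97 and 15.00 in siCon. The groups did not overlap and both were tight, with SDs of 0.06 and 0.04 (n = 3 each), but the change of 0.39 (SE 0.12) did not pass over all genes (adjusted p = 0.222 in limma). It passed when only genes above background were tested (0.0478) and with a mean-variance trend and robust moderation (0.00277). Without both siERK3 3 and siCon 2 the change was 0.38 (adjusted p = 0.416). MMP9 had 8.61, 8.16 and 7.95 in siERK3, against 8.19, 7.95 and 7.95 in siCon. The groups overlapped, and the change of 0.21 had an interval of -0.21 to 0.64. It was 0.03 without siERK3 1 and 0.36 without siERK3 3.

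Of the 6 membrane-type MMPs 5 were higher and 1 lower in siERK3, with a median of 0.18, and 0 passed in limma. MMP25, below background in both groups, was the 1 at an unadjusted p under 0.05, against 13.5% of all genes. MMP14, which activates MMP2 at the cell surface, had log2 values of 10.61, 10.31 and 10.31 in siERK3, against 10.18, 10.20 and 10.45 in siCon. MMP16, another activator of MMP2, had 13.84, 13.92 and 14.09 in siERK3, against 14.01, 13.95 and 14.21 in siCon. Both overlapped between groups, with changes of 0.13 (95% interval -0.21 to 0.47) and -0.11 (-0.42 to 0.21). Single arrays moved both values: MMP14 was at 0.03 without siERK3 1, 0.09 without siCon 1 and 0.22 without siCon 3. MMP16 was at -0.05 without siERK3 1, -0.18 without siERK3 3, -0.16 without siCon 2 and -0.03 without siCon 3. Stromelysins, matrilysins and the other MMPs all lay below background. Among them MMP19 had the smallest p, at means of 6.57 in siERK3 and 5.96 in siCon with no overlap (adjusted p = 0.223 in limma).

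Among the members above background 5 of 6 MMPs were higher and 6 of 8 ADAMs lower in siERK3, and whether the families differ was not tested. The 6 include ADAM17 and ADAM23, both at -0.02, whose signs turned in 2 and 3 of the 6 fits with 1 array left out. When only genes above background were tested, 4 of the 15 (26.7%) passed, against 7.97% of the 8166 genes in that fit. MMP1 and MMP2 were the 2 called higher (3.82% of genes in that fit), and ADAM15 (adjusted p = 0.0429 in limma) and ADAM19 the 2 called lower (4.15%).

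ADAMTS proteases were largely below background. ADAMTS12, known for cleaving cartilage oligomeric matrix protein, was the exception, with log2 values of 9.22, 9.03 and 8.93 in siERK3, against 9.28, 9.25 and 9.55 in siCon. The highest siERK3 value lay just below the lowest siCon value, and the change of -0.30 (SE 0.15) did not pass (adjusted p = 0.432 in limma). Of the 7 proteoglycanases, which cut aggrecan and versican, 6 were lower and 1 higher in siERK3, with a median of -0.30. All lay below background, and 0 passed in limma. ADAMTS15 was the 1 at an unadjusted p under 0.05, against 13.5% of all genes. ADAMTS3, a procollagen N-proteinase, had means of 5.61 in siERK3 and 6.19 in siCon without overlap, below background and not called. The 8 other ADAMTS genes had 5 higher and 3 lower. MMP25-AS1 had means of 5.90 in siERK3 and 5.52 in siCon, below background, and MMP25 5.23 and 4.84; whether the antisense RNA and MMP25 share signal was not tested.

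The rest of the protease system was described with 8 lists of 121 genes, of which 112 were measured; 4 rose and 3 fell over all genes, against 0.447% of all genes called higher and 0.509% lower. Among the 6 measured inhibitors 1 rose and 5 did not pass, with 5 higher and a median of 0.42. In that list 3 had an unadjusted p under 0.05, against 13.5% of all genes. A2M, a plasma inhibitor that traps proteases of many classes, had log2 values of 9.45, 9.04 and 9.37 in siERK3, against 7.55, 6.98 and 6.95 in siCon. It was at least 3.65-fold higher, since all siCon arrays lay below background (adjusted p = 0.00420 in limma), with log2 changes of 2.03 to 2.33 and the call kept with any 1 array left out. TIMP3, the matrix-bound TIMP that inhibits ADAM17 and ADAMTS proteases, was singled out after its values were seen. It had 16.15, 15.71 and 15.81 in siERK3, against 15.16, 14.97 and 15.20 in siCon, with no overlap and a change of 0.78 (adjusted p = 0.0670 in limma). TIMP1 had a change of 0.06 and RECK, a membrane-anchored MMP inhibitor, of 0.03. The rest of the list, PZP and TIMP4, lay below background on all arrays. PZP had a change of 1.58 with no overlap between groups (adjusted p = 0.0746 in limma), and TIMP4 of -0.004.

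Activating proteases convert proenzymes. Of 8 measured 0 passed in limma (3 at an unadjusted p under 0.05, against 13.5% of all genes). FURIN, the proprotein convertase that matures ADAMs and membrane-type MMPs, had a change of -0.45 (SE 0.15). PCSK7 of the same list lay the other way, at 0.41 (SE 0.15), and was above background on all arrays. PLAU, the urokinase that starts plasmin-dependent MMP activation, lay below background, at means of 5.28 in siERK3 and 6.14 in siCon. Of the 9 partners of ADAM10 and ADAM17 trafficking 8 were higher in siERK3, with a median of 0.19. In limma 0 passed, and 3 had an unadjusted p under 0.05, against 13.5% of all genes. Those 3 were tetraspanins that escort ADAM10. The list's other tetraspanins, TSPAN14, TSPAN15 and TSPAN10, had changes of 0.03, 0.02 and 0.005, and of these TSPAN14 lay above background on all arrays. TSPAN17 lay above background on 1 siERK3 array and 0 siCon arrays and had a change of 0.78 (adjusted p = 0.0575 in limma). TSPAN33 lay above it on 2 siERK3 arrays and 0 siCon arrays, with 0.67. TSPAN5, which the naming rule did not take, lay above it on all arrays, with 0.54. Of 7 genes of invadopodia, the matrix-degrading protrusions, 0 passed in limma (1 at an unadjusted p under 0.05, against 13.5% of all genes). SH3PXD2A, a scaffold of these structures, had a change of 0.35 (SE 0.14), and WASL, an actin nucleation factor, of -0.18 (SE 0.13).

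**Figure D5:**
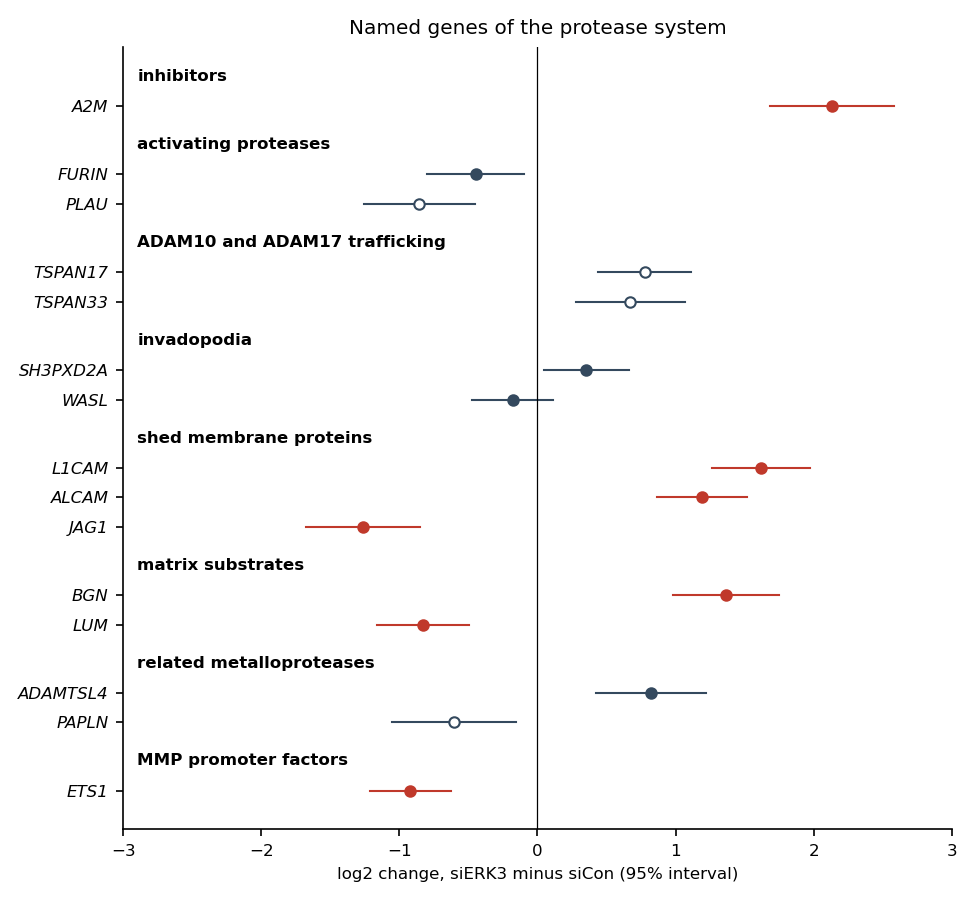
Log2 change, siERK3 minus siCon, with the 95% interval, for named genes of the 8 lists around the proteases. Filled points lay above background on all 3 arrays of a group, open points did not, and red marks the 7 genes that passed the test, from A2M at 2.13 to JAG1 at -1.26.

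Among 31 measured membrane proteins known to be shed by metalloproteases 2 rose, 1 fell and 28 did not pass, with a median of 0.00. Over all genes 0.447% were called higher and 0.509% lower. Of the 31, 9 had an unadjusted p under 0.05, against 13.5% of all genes. L1CAM and ALCAM, both adhesion molecules of the immunoglobulin type, rose 3.07-fold and 2.28-fold, and JAG1, a NOTCH ligand, fell 2.40-fold. ALCAM had log2 values of 10.29, 10.22 and 10.33 in siERK3, against 8.88, 9.24 and 9.16 in siCon. JAG1 had 8.04, 8.24 and 7.87 in siERK3, against 9.64, 9.07 and 9.23 in siCon. Neither pair of groups overlapped. The call of ALCAM was lost without siERK3 1, siERK3 2, siERK3 3 or siCon 3 (highest adjusted p 0.0687 in limma), and that of JAG1 without any 1 array but siCon 2 (highest 0.102), while L1CAM kept its call with any 1 array left out. Without both siERK3 3 and siCon 2 all 7 companion genes that passed lost the call, with adjusted p of 0.0966 for A2M and L1CAM to 0.216 for LUM.

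Among 21 measured matrix substrates BGN, which encodes the proteoglycan biglycan, rose 2.58-fold, LUM, which encodes lumican, fell 1.77-fold and 19 did not pass. Over all genes 0.447% were called higher and 0.509% lower. The list's median was 0.07, and 5 of the 21 had an unadjusted p under 0.05, against 13.5% of all genes. BGN lost its call without siERK3 2, siERK3 3 or siCon 1 (highest adjusted p 0.0724 in limma), and LUM with any 1 array left out (highest 0.157). Of 15 related metalloproteases and ADAMTS-like proteins 0 passed in limma (2 at an unadjusted p under 0.05, against 13.5% of all genes). ADAMTSL4, a microfibril-associated protein that resembles ADAMTS proteases but has no catalytic domain, was at 7.75 in siERK3 and 6.92 in siCon, at least 1.25-fold higher (adjusted p = 0.0774), and PAPLN lay below background.

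Of 15 transcription factors known to act on MMP promoters 1 fell and 14 did not pass, with a median of -0.19. Over all genes 0.509% were called lower. Of the 15, 4 had an unadjusted p under 0.05, against 13.5% of all genes. ETS1 had log2 values of 9.56, 9.49 and 9.68 in siERK3, against 10.45, 10.60 and 10.44 in siCon. The groups were well apart, and the signal fell 1.89-fold (SE 0.13 on the log2 scale, adjusted p = 0.0205 in limma), although the call was lost with any 1 array left out (0.0626 to 0.106). FOSL1 and FOSL2, AP-1 subunits singled out after their values were seen, had changes of -0.71 and -0.44 and did not pass. The list's other AP-1 subunits did not share a direction. JUNB and JUND lay above background on all arrays, with changes of -0.25 and 0.20. FOS, JUN and FOSB lay below background, with changes of 0.11, -0.19 and 0.37, and none of these passed.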

How the data were processed

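The value table the authors deposited holds log2 values for 24351 probe sets on each array. That they are log2 was inferred from their range (1.84 to 19.4). The sources used here do not state how they were summarised and normalized, and 1.46% to 1.61% of values exceed 16, so the zero point and any stretch of the scale are unknown. Array medians were 7.06 to 7.10. The platform annotation gave 1 symbol for 17709 probe sets and left 3739 unnamed. Negative (612), positive (2197) and spike-in or background controls (94) were not tested as genes. The brightest probe set was taken for 20 genes with several. The fit was limma 3.58.1 under R 4.3.3 (default eBayes, prior degrees of freedom 4.77, no filter, siERK3 minus siCon, Benjamini-Hochberg over 17687 genes, threshold 0.05). Intervals are 95%. The number of arrays limits the precision.

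Whether the arrays of a group came from separate cultures is not in the labels; the p-values rest on the spread among these arrays alone, and that spread may be technical. Members and lists were chosen with earlier results of these data known. The naming rule took MAPK6, members past the threshold, up to 10 rises and 10 falls among members above background, the smallest p of each role list, and from each companion list the genes past the threshold or else the 2 smallest p. The scripts were tested on simulated data. Alternatives were other normalizations, filters, variance models, averaged probe sets per gene, other background percentiles, a replicate block and leaving out each array. The fits without both siERK3 3 and siCon 2, and of all probe sets, were added after seeing the data.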

Additional observations from a re-analysis of the deposited data

How the results depend on the processing

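The count of members called higher was 0 with all arrays and became 2 among genes above background and 2 with a mean-variance trend and robust moderation, MMP1 and MMP2 in both. The count called lower was 2 and became 1 with the filter at the 30th percentile of mean level (MMP13 not tested), 0 without both siERK3 3 and siCon 2, and 1 to 1 with any 1 array left out. The members' median log2 change of 0.00 lay between -0.0832 (without siCon 1) and 0.0116 with 1 array left out, and at -0.0689 without both siERK3 3 and siCon 2. Members above background numbered 6 at the 99th percentile of the negative controls and 37 at their median, against 15. ADAM19, MMP1 and ADAM15 were not among those 6, with 0 arrays above the 99th percentile in either group. Over all genes 79 were called higher and 90 lower. These counts became 184 and 181 at the 30th percentile filter, 312 and 339 among genes above background, 343 and 379 with trend and robust moderation, 2 and 5 without both siERK3 3 and siCon 2, and 9 to 30 and 13 to 30 with 1 array left out. Companion genes called higher (4) and lower (3) became 9 and 6, 8 and 7, 11 and 8 and 0 and 0 in the same 4 settings, and 2 to 5 and 0 to 1 with 1 array left out. The cause of these shifts was not tested. The filters left fewer genes and the left-out fits fewer arrays, while trend and robust moderation used the same genes and arrays as the main fit. With 1 array left out ADAM17 ranged from -0.085 to 0.0349 and ADAM23 from -0.27 to 0.19. The low levels of 45 members limit what could be seen of them.

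Deviations of same-numbered arrays from their group means had correlations of 0.05, -0.12 and -0.04 across genes for numbers 1, 2 and 3. Between siERK3 and siCon arrays of different number they ran from -0.15 (siERK3 3 and siCon 1) to 0.17 (siERK3 3 and siCon 2). Whether an unlabelled grouping lies behind the latter was not tested. With 3 arrays per group and no pairing in the labels, these values cannot settle whether the numbers pair the arrays. A replicate block gave 11 genes higher and 22 lower, and 0 companion genes lower. It left ADAM19 at -1.63 (SE 0.152, adjusted p 0.0196 in limma) and MMP13 at -1.33 (SE 0.154, adjusted p 0.0377). Their SEs without the block were 0.166 and 0.231.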
